A study of Mus musculus with 6 samples.

Results

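The 9 genes Cs, Aco1, Idh1, Idh2, Idh3a, Ogdh, Suclg1, Fh1 and Mdh2, enzymes of the citrate cycle and its isocitrate dehydrogenases, were taken by name from a table of 43430 mouse gene IDs, and all 9 were present. Their expression was measured by RNA-seq in lung fibroblasts of male C57BL/6J mice, 9 to 11 weeks old. The cells were flow-sorted as positive for PDGFRA, a growth factor receptor on many lung fibroblasts. One group of 9 mice breathed room air and the other 9 breathed 10% CO2 (hypercapnia) under normoxic conditions for 10 days. The cells of 3 mice were pooled in each library, giving 3 libraries a group, M1 to M3 for room air and M4 to M6 for hypercapnia, so the spread between libraries is a spread between pools of animals. All mice carried the same strain background and no transgene is named.

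The citrate cycle runs in the mitochondrial matrix, where it oxidises acetyl groups to CO2 and yields the NADH and succinate that feed the respiratory chain. Citrate synthase (Cs) starts the cycle, an aconitase makes isocitrate, isocitrate dehydrogenase and the 2-oxoglutarate dehydrogenase complex each release CO2, and succinyl-CoA ligase, succinate dehydrogenase, fumarase and malate dehydrogenase return the carbon to oxaloacetate. Isocitrate is oxidised by several enzymes. IDH3 is the NAD-dependent matrix enzyme of the cycle, IDH2 is an NADP-dependent matrix enzyme and IDH1 its relative in the cytosol and peroxisomes. In cultured cells, high CO2 has been reported to lower IDH2 through the microRNA miR-183. This makes Idh2 the member with a prior reason to be looked at under hypercapnia. The values here are transcript levels in sorted lung cells after 10 days, and IDH2 protein was not analysed.

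The miR-183 cluster on chromosome 6 encodes 3 related microRNAs, and their mature forms are printed from RefSeq on GRCm38.p6 to show the seed that a target would have to match. Capitals mark the seed, bases 2 to 8, and miR-183-5p, miR-96-5p and miR-182-5p each have a seed of their own.
mmu-miR-183-5p: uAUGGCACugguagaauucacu
mmu-miR-96-5p: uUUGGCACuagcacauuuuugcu
mmu-miR-182-5p: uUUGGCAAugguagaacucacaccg
The 3′ untranslated region (UTR) of the principal Idh2 transcript in GENCODE M21 is 270 bases long and holds the complement of the miR-183-5p seed, GTGCCAT, from base 235, 29 bases before the transcript ends. The stretch around it lies on the minus strand of mm10 at chr7:80094873-80094900, and is given in the direction of the mRNA with the complement and the A that follows it in capitals.
Idh2 site: attgctctggaatcacatgGTGCCATAt
Of the 9 members, Idh2 alone holds GTGCCAT in the 3′ UTR of its principal transcript. The letters GTGCCAT, read in the direction of the mRNA, stand in 8.17% of 20728 principal 3′ UTRs of any length. They stand in 1.75% of the last 270 bases of the 16102 that are at least as long as that of Idh2. The A that follows them in Idh2 was not part of this search. The complement of the miR-96-5p seed, GTGCCAA, occurs in the 3′ UTR of Ogdh and in 7.40% of all, and that of miR-182-5p, TTGCCAA, in 0 of the 9 members and in 10.2% of all. A match is a description of these letters and not a measured site. The hairpin genes Mir183, Mir96 and Mir182 had 0 counts in all 6 libraries, and mature microRNA was not analysed here.

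Total counts ran from 8999780 to 10198336 per library. The sorted receptor Pdgfra stood at 3562 ± 209 CPM (counts scaled to library size with TMM factors; mean ± SD of 3 libraries) under room air and 2971 ± 419 CPM under hypercapnia, and Col1a1, a chain of type I collagen, at 5078 ± 285 and 4942 ± 479 CPM. The log2 fold change was -0.26 ± 0.11 (SE) for Pdgfra and -0.04 ± 0.09 for Col1a1. For Pdgfra the unadjusted edgeR p was 0.0417 and the adjusted p 0.383, so it was not called. The leukocyte marker Ptprc had 2 counts in all 6 libraries together and the epithelial marker Epcam stood at 1.17 ± 1.07 and 0.487 ± 0.764 CPM. Other epithelial transcripts were higher, with the alveolar type 2 marker Sftpc at 96.2 ± 41.2 and 142 ± 65.4 CPM and the club cell marker Scgb1a1 at 363 ± 112 and 223 ± 89 CPM. The 10 alveolar type 2 markers summed to between 153 and 357 CPM in room air and between 251 and 459 CPM in hypercapnia, lowest in M3 and M4, with 9 of the 10 log2 fold changes positive. Of the 9 airway markers 7 were negative, and of both epithelial lists 0 were called by edgeR, DESeq2 or limma-voom. An unadjusted edgeR p under 0.05 was found for 1 of the 10 and 3 of the 9, beside 12% of all 13005 tested genes. Transcripts of endothelial cells were present and uneven: Pecam1 stood at 169 ± 101 and 308 ± 81.7 CPM, the 18 markers of that list summed to between 792 and 2838 CPM in room air and between 2797 and 4503 CPM in hypercapnia, and none of them was at 0. All 18 log2 fold changes were positive with a median of 0.88, beside 51.5% positive and a median of 0.01 over all tested genes. Of the 18, 0 were called by edgeR or limma-voom and 2 by DESeq2, which called 3.34% of all tested genes. An unadjusted edgeR p under 0.05 was found for 11 of the 18, against 12% of all tested genes. In bulk libraries such as these, fewer cells of a type and less RNA per cell cannot be told apart.

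None of the 9 genes was called as changed in hypercapnia by edgeR's quasi-likelihood test at an adjusted p under 0.05. Of the 13005 tested genes 1.22% passed. At an unadjusted edgeR p under 0.05 the count of members was also 0, against 12% of all tested genes, and DESeq2 and limma-voom called 0 of the 9 as well, against 3.34% and 1.51% of all. All 9 passed the filter on low counts in both groups, with between 334 and 2839 counts in every library. Their log2 fold changes ran from -0.25 (Idh3a) to 0.09 (Aco1), 4 of them positive and 5 negative, with a median of -0.11 beside 0.01 over all tested genes. The 95% intervals of all 9 lay within 0.56 of 0 on the log2 scale, a factor of 1.48, so a larger change of any of them in either direction was outside its own interval. Both bounds lay within 0.56 of 0 for 41.3% of all tested genes, which span all levels. That cutoff is the widest bound of the members themselves, so all 9 meet it by definition. These intervals are per gene and are not adjusted for their number.

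**Figure D1:**
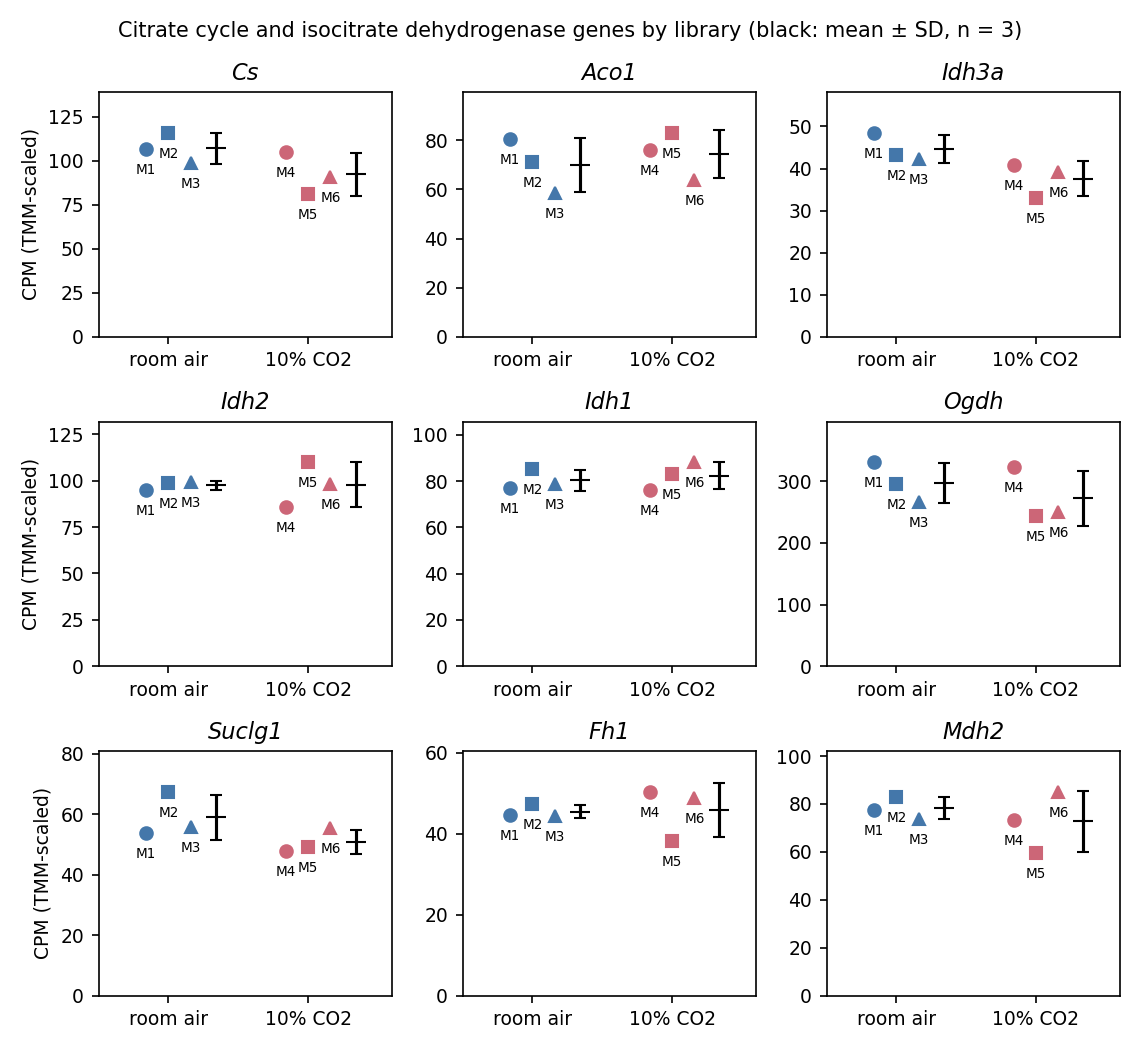
Expression of the 9 genes in each library, in TMM-scaled CPM (y axis, from 0), for room air (blue, M1 to M3) and 10% CO2 (red, M4 to M6); black marks give the mean ± SD of 3 libraries. The groups overlap in every panel except Idh3a, where the 3 hypercapnia libraries (32.9 to 40.8 CPM) lie below the 3 room air libraries (42.2 to 48.5 CPM), and M5 is the lowest library for Cs, Idh3a, Ogdh, Fh1 and Mdh2.

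Idh2, on chromosome 7 from 80094846 to 80115392, stood at 94.9, 98.7 and 99.3 CPM in room air and at 85.9, 110 and 98.1 CPM in hypercapnia. The hypercapnia libraries held both the lowest value, in M4, and the highest, in M5, and the room air libraries lay between them. The group means of 97.6 ± 2.41 and 98 ± 12 CPM (SD, n = 3) gave a log2 fold change of 0.01 ± 0.12 (SE) and an edgeR adjusted p of 0.991. Its 95% interval ran from -0.26 to 0.27, that is, from 16.2% below to 20.4% above the room air level. A loss of the Idh2 transcript larger than that bound lay outside the interval. A smaller loss lay within it and could not be told from no change with 3 libraries a group. Without M5 the log2 fold change was -0.09 ± 0.13 and without M1 it was -0.02, both not called.

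Idh1, on chromosome 1 from 65158616 to 65186500, makes NADPH in the cytosol and stood at 76.8, 85.4 and 78.7 CPM in room air and 76.1, 82.9 and 88.1 CPM in hypercapnia. The groups overlapped, and the log2 fold change was 0.04 ± 0.11 with a 95% interval from -0.21 to 0.28. It was the member with the smallest spread within groups, at 0.09 on the log2 scale.

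Idh3a, on chromosome 9 from 54586334 to 54604661, encodes the catalytic alpha subunit of the NAD-dependent enzyme. It stood at 48.5, 43.3 and 42.2 CPM in room air and at 40.8, 32.9 and 39.1 CPM in hypercapnia. All 3 hypercapnia libraries were below all 3 room air libraries, by a narrow gap between M3 and M4. Its difference had the largest size among the 9 and did not pass the test, with a log2 fold change of -0.25 ± 0.14, a 95% interval from -0.56 to 0.06 and an edgeR adjusted p of 0.542. Idh3a was the only member whose groups did not overlap, where 18% of all tested genes had no overlap in either direction, 8.74% had none with hypercapnia lower and 9.28% none with hypercapnia higher. The regulatory subunits of the same enzyme had positive values that did not pass either, 0.15 ± 0.17 for Idh3b and 0.15 ± 0.16 for Idh3g, with overlapping groups. With the endothelial level added to the edgeR model these were 0.42 ± 0.18 (adjusted p = 0.274) and 0.49 ± 0.14 (adjusted p = 0.118). Idh3a had -0.33 ± 0.18 in the same fit, and none of these was called. The endothelial level was 6.69, 6.46 and 4.92 log2 CPM in room air and 7.35, 7.08 and 6.68 in hypercapnia. It partly follows the group, so this fit cannot fully separate it from the exposure, here or for the genes below.

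At the entry of the cycle, Cs, on chromosome 10 from 128337734 to 128362479, stood at 107, 116 and 98.6 CPM in room air and 105, 80.9 and 91.1 CPM in hypercapnia. M5 and M6 were below every room air library while M4 lay among them. The log2 fold change was -0.21 ± 0.13, with a 95% interval from -0.49 to 0.06 and an adjusted p of 0.562. Of the 50-base stretches of the principal Cs transcript 4% also occur in Csl, a related gene. Csl had 0 counts in every library, so reads of those stretches were dropped or counted for Cs, and not for Csl.

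Aco1, on chromosome 4 from 40143081 to 40198338, is the cytosolic aconitase, which without its iron-sulphur cluster becomes the RNA-binding iron regulatory protein IRP1. It stood at 80.5, 71 and 58.6 CPM in room air and 76.2, 83.1 and 63.9 CPM in hypercapnia, with the widest spread within groups of the 9 genes, 0.21 on the log2 scale. The groups overlapped, with M3 the lowest and M5 the highest of the 6 libraries, and the log2 fold change was 0.09 ± 0.15 (adjusted p = 0.89). The endothelial marker level was also lowest in M3, at 4.92 log2 CPM against 6.46 to 7.35 in the other libraries. With that level added to the model, Aco1 had a log2 fold change of -0.16 ± 0.15 (adjusted p = 0.677). The part of endothelial RNA in the level of Aco1 was not tested.

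Ogdh, on chromosome 11 from 6291633 to 6356642, encodes the first component of the 2-oxoglutarate dehydrogenase complex. It stood at 331, 295 and 267 CPM in room air and at 324, 244 and 250 CPM in hypercapnia, where M4 lay among the room air libraries and M5 and M6 below them. The log2 fold change was -0.13 ± 0.14, with a 95% interval from -0.43 to 0.18. With the endothelial level added to the model it was -0.32 ± 0.15 (adjusted p = 0.322), farther from 0 and still not called. Cs had -0.33 ± 0.15 in the same fit, with an unadjusted p of 0.0454 and an adjusted p of 0.308, the smallest adjusted p of any member under any setting tried. The partner components of the complex, Dlst (-0.01 ± 0.11) and Dld (-0.14 ± 0.13), did not pass.

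Suclg1, on chromosome 6 from 73248382 to 73276911, is the alpha subunit shared by both succinyl-CoA ligases, and stood at 53.9, 67.4 and 55.6 CPM in room air and 47.7, 49.2 and 55.4 CPM in hypercapnia. M4 and M5 were below every room air library and M6 lay between M1 and M3, and the log2 fold change was -0.22 ± 0.13 with a 95% interval from -0.51 to 0.08. Its beta partners had values of -0.17 ± 0.14 for Sucla2, the ADP-forming form, and -0.37 ± 0.20 for Suclg2, the GDP-forming form. Neither passed, and 21.8% of the 50-base stretches of Suclg2 also occur in Gm15163.

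Fh1, on chromosome 1 from 175600374 to 175625635, encodes fumarase and stood at 44.6, 47.3 and 44.5 CPM in room air and 50.4, 38.2 and 48.9 CPM in hypercapnia. As for Idh2, the hypercapnia libraries lay on both sides of the room air libraries, and the log2 fold change was 0.01 ± 0.14 with an interval from -0.30 to 0.33. Mdh2, on chromosome 5 from 135778480 to 135790398, is the malate dehydrogenase that closes the cycle, and stood at 77.6, 83.1 and 73.9 CPM in room air and 73.3, 59.7 and 85.1 CPM in hypercapnia. M5 was the lowest and M6 the highest of all 6 libraries, and the log2 fold change was -0.11 ± 0.14 with an interval from -0.42 to 0.20. No exon of the 9 members overlaps an exon of another annotated gene. The unknown strand setting of the counting thus does not bear on them through shared exonic bases. Overlap with introns of other genes was not checked.

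In CPM, M5 was the lowest library for 5 members (Cs, Idh3a, Ogdh, Fh1 and Mdh2) and the highest for Aco1 and Idh2. M4 was the lowest for Idh1, Idh2 and Suclg1. How often each library was lowest over all tested genes was not counted. The 9 genes together summed to 914, 907 and 818 CPM in room air and 879, 781 and 820 CPM in hypercapnia, and held between 0.0814% and 0.0884% of the counts of each library. M5 also had the lowest sum over the 9 airway epithelial markers, 195 CPM against 343 to 642 CPM in the other libraries, and their part in the values of M5 was not tested. In TPM (counts divided by gene length, then by the library sum) the 9 members summed to 805 in M5. The other libraries ran from 768 (M3) to 823 (M2), and Ogdh was lowest in M6. Without M5 the log2 fold changes of Cs, Idh3a, Ogdh and Mdh2 were -0.13, -0.16, -0.05 and 0.02. The spread of the members within groups, a median of 0.15 on the log2 scale, was equal to that of the 4312 tested genes in their range of levels.

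**Figure D2:**
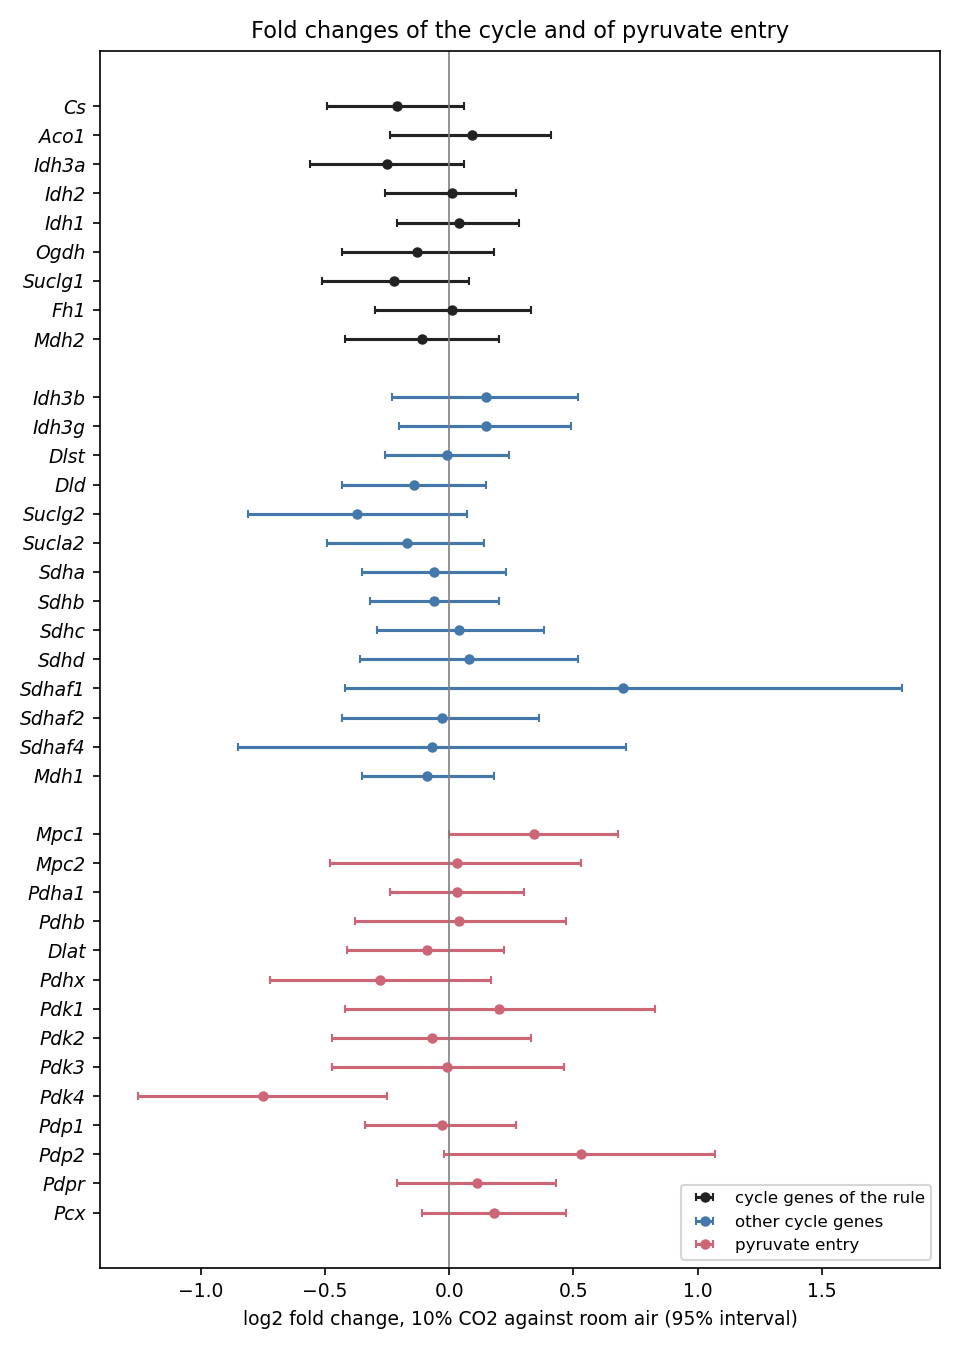
Log2 fold change of 10% CO2 against room air (x axis) with its 95% interval for the 9 genes (black), 14 of the 15 other tested genes of the cycle (blue) and 14 genes of pyruvate entry (red). The 9 intervals span 0 and stay within 0.56 of it, and Pdk4 stands farthest below 0 at -0.75.

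None of the remaining genes of the cycle passed the test either. Of 16 listed (the other subunits of IDH3, the 2-oxoglutarate and succinate dehydrogenases, the succinyl-CoA ligases, Mdh1 and assembly factors, among others), 15 were tested, 0 rose and 0 fell by edgeR, 0 had an unadjusted edgeR p under 0.05, and DESeq2 and limma-voom called 0. Their median log2 fold change was -0.04. The subunits of succinate dehydrogenase, which links the cycle to the respiratory chain, had values of -0.06 (Sdha), -0.06 (Sdhb), 0.04 (Sdhc) and 0.08 (Sdhd). With the endothelial level in the model, Sdhd had 0.45 ± 0.20 (edgeR adjusted p = 0.285), and 0 genes of the list were called. The value farthest from 0, that of the assembly factor Sdhaf1 (0.70 ± 0.51), rested on a mean of 3.71 CPM in room air, and 69.6% of its exonic bases are shared with another gene model.

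Of 14 genes that bring pyruvate into the cycle or regulate its entry, 0 passed by edgeR, 2 had an unadjusted edgeR p under 0.05, and DESeq2 called 1 and limma-voom 0. The gene called by DESeq2 was Pdk4, a kinase that switches off pyruvate dehydrogenase, at 59.7, 45.5 and 47.9 CPM in room air and 41.3, 29.2 and 20.9 CPM in hypercapnia. All 3 hypercapnia libraries were below all 3 room air libraries. Its log2 fold change was -0.75 ± 0.23 with an adjusted p of 0.174 by edgeR, 0.0418 by DESeq2 and 0.111 by limma-voom. Mpc1, a subunit of the mitochondrial pyruvate carrier, had 0.34 ± 0.15 (adjusted p = 0.413), and a gene model on the other strand covers 23.1% of its exons. Pdp2, a phosphatase that reactivates pyruvate dehydrogenase, had 0.53 ± 0.25. The dehydrogenase subunit gene Pdha1 had 0.03 ± 0.12, with 16.1% of its exonic bases under Map3k15, and the median of the 14 was 0.03.

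Of 18 tested genes that fill or drain the cycle, 0 passed by edgeR, DESeq2 or limma-voom and 2 had an unadjusted edgeR p under 0.05. Pcca, a subunit of propionyl-CoA carboxylase, had -0.56 ± 0.18 (34.1 to 23.1 CPM, adjusted p = 0.203), Abat, which breaks down the transmitter GABA, 0.42 ± 0.16 and the cytosolic malic enzyme Me1 -0.31 ± 0.18. Of 6 tested carriers, 0 passed by any of the 3 tools and 1 had an unadjusted edgeR p under 0.05. That was Slc1a5, a glutamine transporter of the plasma membrane, at 345, 333 and 309 CPM in room air and 399, 423 and 447 CPM in hypercapnia, with every hypercapnia library the higher. Its log2 fold change was 0.36 ± 0.11 with an adjusted p of 0.162 by edgeR and 0.0519 by DESeq2. The aspartate carrier Slc25a12 had 0.25 ± 0.13 and the glutamate carrier Slc25a22 -0.19 ± 0.16.

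IDH1 and IDH2 share the task of making NADPH with other enzymes, and 12 genes of NADPH supply were tested. The list includes the NAD kinases, which make NADP and do not reduce it. None passed by edgeR, DESeq2 or limma-voom, 1 had an unadjusted edgeR p under 0.05, and 9 of the 12 were negative with a median of -0.11. Mthfd1, of cytosolic folate metabolism, had -0.40 ± 0.15 (40.4 to 30.6 CPM, adjusted p = 0.287), and Pgd, of the pentose phosphate pathway, -0.30 ± 0.14. Nnt, which makes NADPH in the matrix from NADH and carries an inactivating deletion in C57BL/6J mice, still had reads in all libraries, at 28.4 ± 5.17 and 26.1 ± 4.76 CPM (-0.12 ± 0.19). A second gene model of the same name covers 47.4% of its exonic bases. Sirt3, the mitochondrial deacetylase known to act on IDH2, stood at 11.5 ± 2.57 and 8.27 ± 0.472 CPM (-0.47 ± 0.26, adjusted p = 0.52) without overlap, and other gene models cover 12.7% of its exons. Sirt5 had 0.13 ± 0.30. Of these 2 genes 0 were called by edgeR, DESeq2 or limma-voom, and 0 had an unadjusted edgeR p under 0.05.

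Of the 5 genes around 2-hydroxyglutarate and related acids, 0 passed by any of the 3 tools and 1 had an unadjusted edgeR p under 0.05. This was Hoga1, an aldolase of hydroxyproline breakdown, with 1.12 ± 0.43 on a level of 2.46 CPM in room air (adjusted p = 0.311). D2hgdh, which oxidises D-2-hydroxyglutarate, had -0.18 ± 0.21. Of 13 genes of iron control and iron-sulphur or lipoate assembly, on which the aconitases and the 2-oxoglutarate dehydrogenase complex depend, 0 passed by edgeR and 1 by DESeq2. Fth1, the ferritin heavy chain, stood at 1762, 1821 and 1778 CPM in room air and 1487, 1242 and 1361 CPM in hypercapnia, without overlap. Its log2 fold change was -0.39 ± 0.10, with an adjusted p of 0.104 by edgeR, 0.0183 by DESeq2 and 0.051 by limma-voom, and it was the only gene of this list with an unadjusted edgeR p under 0.05. The ferritin light chain Ftl1 had -0.23 ± 0.11, with an unadjusted p of 0.0569 by edgeR, 0.0416 by DESeq2 and 0.0312 by limma-voom. Its adjusted p was 0.437 by edgeR, 0.397 by DESeq2 and 0.308 by limma-voom, so it was not called. Of its exonic bases 34.6% are shared with other models. The cysteine desulphurase Nfs1 had -0.36 ± 0.17. Of 7 tested regulators of mitochondrial gene expression, 0 passed by any of the 3 tools and 0 had an unadjusted edgeR p under 0.05. Tfam, the mitochondrial DNA packaging factor, had -0.13 ± 0.17, Esrra 0.14 ± 0.15 and Ppargc1a, at 0.808 CPM in room air, 0.70 ± 0.62.

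**Figure D3:**
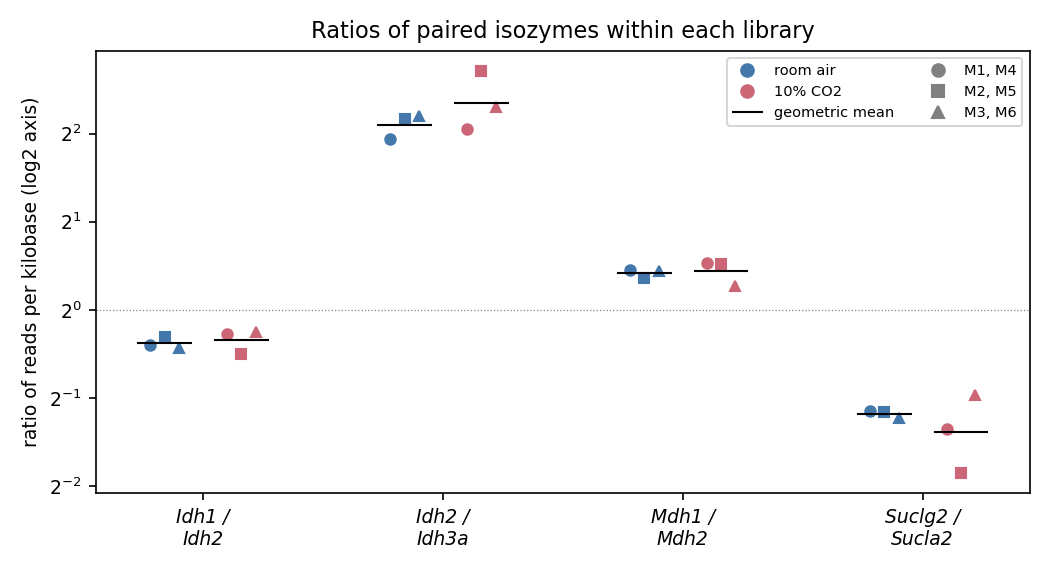
Ratio of reads per kilobase of exon between paired isozymes within each library (y axis, log2 scale) in room air (blue) and 10% CO2 (red); marker shapes name the libraries and bars give geometric means. All 4 ratios overlap between the groups, and the ratio of Idh2 to Idh3a runs from 3.83 to 6.55.

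Ratios between isozymes compare genes within a library and need no library scaling, and 5 were tested, of which 4 are given, with an exact two-sided permutation test of the log2 ratio, which cannot go below p = 0.1 with 3 libraries against 3. Per kilobase of exon, the ratio of Idh1 to Idh2 was 0.756, 0.809 and 0.74 in room air and 0.827, 0.704 and 0.839 in hypercapnia (exact p = 0.8). The ratio of Idh2 to Idh3a was 3.83, 4.47 and 4.61 in room air and 4.13, 6.55 and 4.92 in hypercapnia, with M5 the highest, and means of 4.30 ± 0.413 and 5.20 ± 1.24 (exact p = 0.4). The NADP-dependent matrix enzyme thus had more transcript per length than the NAD-dependent alpha subunit in all 6 libraries. The other ratios were 1.34 ± 0.0499 and 1.36 ± 0.13 for Mdh1 to Mdh2 and 0.443 ± 0.0131 and 0.393 ± 0.117 for Suclg2 to Sucla2. Adjusted over the 5 ratios, the exact p of each of the 4 was 0.8. With the length of the principal transcript in place of all exons, the ratio of Mdh1 to Mdh2 was below 1, at 0.661 and 0.675, while those of Idh1 to Idh2 (0.624 and 0.641) and of Suclg2 to Sucla2 (0.34 and 0.302) stayed below 1 and that of Idh2 to Idh3a (3.02 and 3.65) above it.

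**Figure D4:**
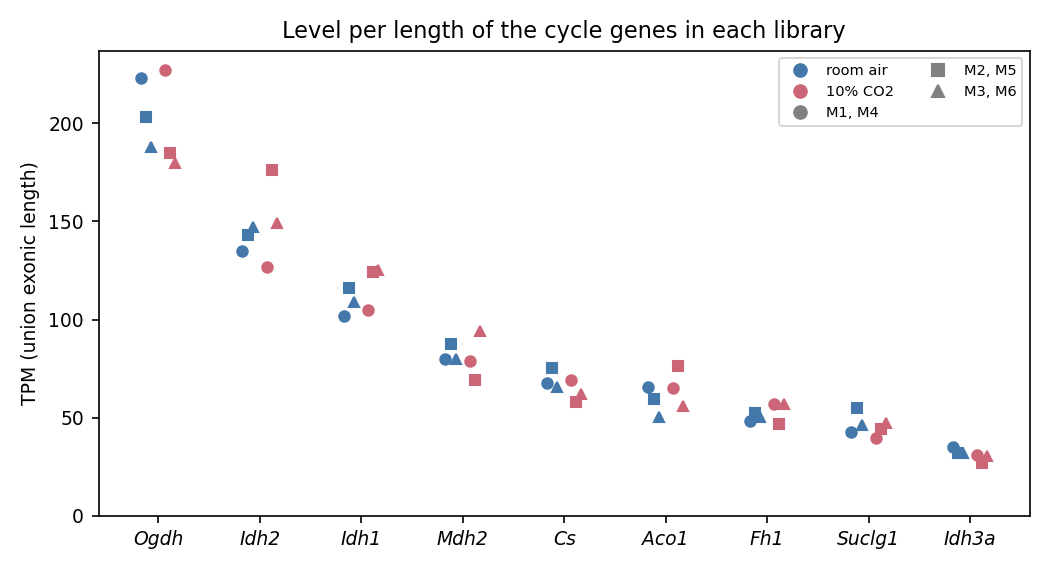
Level per length of the 9 genes in each library, in TPM computed from the counts and the union of all exons (y axis, from 0), ordered by the mean over 6 libraries. Ogdh (180 to 227) and Idh2 (127 to 176) are highest and Idh3a (26.8 to 35.1) is lowest.

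On the TPM scale, which divides counts by gene length and then by the library sum, Ogdh was highest at 201 ± 20.1 (SD over 6 libraries), followed by Idh2 at 146 ± 16.7 and Idh1 at 113 ± 9.70. Mdh2 (81.5 ± 8.47), Cs (66.3 ± 6.01), Aco1 (62 ± 9.11), Fh1 (51.8 ± 4.30) and Suclg1 (45.8 ± 5.17) came next, and neighbours among these 5 overlapped in their ranges over the libraries. Idh3a was lowest at 31.2 ± 2.71, below Suclg1 in all 6 libraries. The first 3 genes and the last did not overlap their neighbours. The regulatory subunit genes of the same enzyme stood higher than Idh3a, with Idh3b at 68.7 ± 15.1 and Idh3g at 103 ± 25.7 TPM in room air (SD, n = 3). With the length of the principal transcript, Ogdh (193), Idh2 (157) and Idh3a (47.7) had the same ranks, but they no longer stood apart. Idh2 (138 to 187) then overlapped both Ogdh (170 to 220) and Mdh2 (122 to 164), and Idh3a (40.7 to 54.4) overlapped Fh1 (43.1 to 53.5). Mdh2 moved to 144, Suclg1 to 101 and Idh1 to 98.8, so both the order and the gaps between neighbours depend on the length chosen.

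Over the 6 libraries, Gpc3, which encodes the cell surface proteoglycan glypican 3, had the profile most like that of Idh2. Likeness was the root mean square distance between log2 CPM values centred on each gene's mean, among the 10722 genes that averaged 5 CPM or more. The distance of Gpc3 was 0.021, against a median of 0.22 over all genes, and its levels were 847, 904 and 918 CPM in room air and 787, 1029 and 893 CPM in hypercapnia. Like Idh2, it was lowest in M4 and highest in M5. Next came Dlst (0.0379), Cdk5rap3 (0.04), Gm21092 (0.0448) and Galnt1 (0.0453), all with M4 lowest and M5 highest. Dlst encodes the succinyltransferase core of the 2-oxoglutarate dehydrogenase complex, and stood at 84.9, 84.6 and 85.7 CPM in room air and 74.6, 91.1 and 87.6 CPM in hypercapnia. Gpc3 was picked as the smallest distance, so its place below the median follows from the choice. Of the other members, Idh1 was nearest at 0.091 (rank 236) and Ogdh, the partner of Dlst, farthest at 0.261. Mdh2, Idh3a and Cs also lay beyond the median distance. These distances describe 6 libraries and were not tested.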

How the data were processed

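The deposited values are raw counts per Ensembl gene in 6 columns, whole numbers without normalization. The submitters' processing notes name TopHat2 2.1.0, HTSeq and the build mm10, besides bcl2fastq 2.17.1.14 and FastQC, with no roles. For the annotation release and the strand setting, the entry is: not given in the sources used here. Column names carry the group but not the sample, so columns were assigned to groups only. GENCODE M21 gave symbols, positions and lengths for 42546 of 43430 IDs. Depth was 8999780 to 10198336 counts, at which 3 counts are 0.281 to 0.354 CPM. Counts were fitted with edgeR 4.0.16 (R 4.3.3; TMM factors 0.943 to 1.05, default filter with a minimum count of 10, quasi-likelihood F-test, group as the only term, 4 residual degrees of freedom) and adjusted by Benjamini-Hochberg over 13005 genes. The SE is the log2 fold change divided by the square root of F, and intervals use the fit's moderated degrees of freedom. DESeq2 1.42.0, limma-voom 3.58.1, other scalings and filters, robust dispersion, an endothelial covariate (mean log2 of CPM + 0.5 over the endothelial list) and leaving out each library were alternatives. The code was tested on simulated counts with known changes in genes drawn from all levels. The edgeR fit called 14.9% of genes changed by a factor of 1.5 and 62.5% of those changed by 2. Of its calls 5.6% were false. Chi-square per degree of freedom between libraries was at least 12.6, so no library repeated another. The members and lists were chosen with earlier results of these data known. Named genes are the members, their partner subunits and isozymes, every called gene and up to 3 genes with the smallest p per metabolic list, Nnt, 5 checks of the sort, and the 5 genes most like Idh2. Sftpc, Scgb1a1, Pdha1, the subunits of succinate dehydrogenase, the microRNA host genes and the genes that share sequence were added after their values were seen. A few genes of the lists, and the ratio that needs one of them, are counted but not reported here.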

Additional observations from a re-analysis of the deposited data

How the results depend on the processing

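No member was called under any of the 14 alternatives, and in 114 of 126 cases the log2 fold change kept its sign. The signs that turned were those of Aco1, Fh1, Idh1, Idh2 and Mdh2, whose main values ran from -0.11 (Mdh2) to 0.09 (Aco1). With the endothelial covariate Aco1 was -0.16 and Fh1 -0.01, and by limma-voom Fh1 was -0.0024. With 1 library left out, Aco1 turned to -0.03 (without M3), Idh1 to -0.02 (M6), Idh2 to -0.02 (M1) and -0.09 (M5), Mdh2 to 0.02 (M5), and Fh1 to -0.06 (M4), -0.04 (M6), -0.01 (M3) and -0.0039 (M1). Over all alternatives Aco1 ran from -0.16 to 0.20, Idh1 from -0.02 to 0.10, Idh2 from -0.09 to 0.09, Fh1 from -0.06 to 0.13, Mdh2 from -0.24 to 0.02, Cs from -0.33 to -0.13, Idh3a from -0.33 to -0.16, Ogdh from -0.32 to -0.05 and Suclg1 from -0.28 to -0.11. The ratio differences turned, on the log2 scale, for Idh1 to Idh2 (-0.01 without M6), Mdh1 to Mdh2 (-0.01 without M2 or M5, -0.02 without M4) and Suclg2 to Sucla2 (0.01 without M5). Over all genes, 159 were called, 756 without the low-count filter, 435 by DESeq2 and 255 with robust dispersion, and between 24 (without M2) and 148 (without M4) with 1 library left out, with 27 without M5 and 42 without M6; without composition factors 97 were higher and 75 lower, against 68 and 91. The cause was not tested. The length of the principal transcript was chosen after seeing the data. No paired analysis was possible because the columns carry no replicate number that the groups share.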
